A study of Mus musculus with 24 samples.

Results

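The genes that move a cell from G1 into S phase were followed in mouse melanoma cells that lack MITF, TFEB, TFE3 or combinations of them. The set was picked out by gene symbol and held 10 of the 12010 genes in the table: the D-type cyclins Ccnd1, Ccnd2 and Ccnd3, the E-type cyclins Ccne1 and Ccne2, the kinases Cdk2, Cdk4 and Cdk6, and the inhibitors Cdkn1a and Cdkn1b. All 10 were measured in every library. The cells were B16F10-luc2, a luciferase-carrying derivative of the B16-F10 mouse melanoma line, and RNA was read from its 3′ ends in 24 libraries, 3 for each of 8 lines. The parental line was the control. MITF KO carried a frameshift in Mitf, and because the study saw a weak, smaller band with its MITF antibody, a little truncated protein may be made in that line and in those derived from it. TFE3 KO, TFEB KO and TFEB/TFE3 DKO were made with CRISPR-Cas9 in the parental cells. The same was done in the MITF KO cells to give MITF/TFEB DKO, MITF/TFE3 DKO and TKO, the last of which lacks all of MITF, TFEB and TFE3. The TFEB and TFE3 knockouts were screened as monoclonal lines, so that a genotype and its clone cannot be told apart and only cells able to divide are represented. The labels do not say whether the 3 libraries of a line came from separate cultures, so the p-values measure the spread between these libraries only.

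In G1, growth signals raise the D-type cyclins, which bind CDK4 or CDK6 and begin to phosphorylate the retinoblastoma protein. E-type cyclins then activate CDK2, phosphorylation is completed, and E2F factors switch on the genes for DNA replication. p21, the product of Cdkn1a and a classic target of p53, and p27, the product of Cdkn1b, bind and restrain these complexes. In the melanocyte lineage Cdk2 is known as a target of MITF, and Cdk2 lies head to head with the melanosome matrix gene Pmel, another MITF target.

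MITF, TFEB and TFE3 bind the E-box CACGTG and its relative CATGTG, so the stretches upstream of the members were searched for these letters. Stretches are shown for the 3 kinases and for Ccnd1 and Ccnd2, the cyclins and kinases that hold every 2-fold call against parental cells, with Cdk4 beside its fellow kinases because it holds the most copies. For Ccnd2 the match nearest to the start is shown. The sequences come from GRCm39 and are printed in the direction of transcription of the named gene, with the matches in capitals and 50 bases on either side where the window allowed.
Cdk2: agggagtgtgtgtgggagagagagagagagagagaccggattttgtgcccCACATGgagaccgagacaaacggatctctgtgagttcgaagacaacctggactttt
Ccnd1: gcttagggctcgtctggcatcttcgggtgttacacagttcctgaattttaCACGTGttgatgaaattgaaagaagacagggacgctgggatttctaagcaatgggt
Ccnd2: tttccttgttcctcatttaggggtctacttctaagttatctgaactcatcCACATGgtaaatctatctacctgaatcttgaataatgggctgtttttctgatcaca
Cdk4: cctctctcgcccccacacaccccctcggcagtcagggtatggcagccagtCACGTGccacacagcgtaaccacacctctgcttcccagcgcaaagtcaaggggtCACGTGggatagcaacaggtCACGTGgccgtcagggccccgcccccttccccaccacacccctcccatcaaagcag
Cdk6: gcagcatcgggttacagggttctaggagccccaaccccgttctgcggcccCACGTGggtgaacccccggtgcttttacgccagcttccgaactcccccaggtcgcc

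The Cdk2 stretch is chr10:128541472-128541577 on the minus strand. It lies between the starts of the main transcripts of Cdk2 and Pmel, which point away from each other and are 1157 bases apart. The CACATG is 564 bases before the Cdk2 start, and read from the other strand it is the CATGTG 599 bases before the Pmel start. The Ccnd1 stretch is chr7:144494043-144494148 (minus strand), with the E-box 436 bases before the start, and the Ccnd2 stretch is chr6:127128389-127128494 (minus strand), with the match 421 bases before the start. Ccnd2 also has a CACGTG, not shown, at 578 bases. The Cdk4 stretch, chr10:126899182-126899361 (plus strand), holds 3 copies of CACGTG at 143, 89 and 69 bases before the start of its main transcript, and the Cdk6 stretch, chr5:3393623-3393728 (plus strand), holds 1 at 235 bases. No annotated exon lies in any of the 5 stretches. The Ccnd2, Cdk4 and Cdk6 stretches lie upstream of the main transcript but inside the annotated span of their own gene, which begins further upstream. Within 1000 bases upstream of the start, CACGTG, which reads the same on both strands, was present in 4 of the 10 members (Cdk4, Cdk6, Ccnd1 and Ccnd2) and in 18.4% of 11091 protein-coding genes of the table. CATGTG, searched on both strands and sharing no match with CACGTG, was present in 6 members (Cdk2, Ccnd2, Ccnd3, Ccne1, Ccne2 and Cdkn1a) and in 38.6% of genes, and Cdkn1b had neither. The longer TCACGTGA, which contains CACGTG, was in none of the members and in 1.8% of genes. A match describes the letters only. It shows no binding and gives no cause for a change in these cells.

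Depth ran from 18300902 to 26667877 reads on genes per library, and the member with the fewest reads in any library, Ccne2, still had 710. Counting error alone was then at most 3.75% of a value, and for each member it was below its own spread between replicates, whose median coefficient of variation ran from 3.41% for Ccne1 to 16.5% for Cdk2. The melanocyte markers Pmel, Tyr, Tyrp1, Dct, Mlana and Sox10 were present in all 24 libraries. Of the markers of other cell types, Ptprc, Cd3e, Adgre1, Epcam and Pdgfra had no row in the table analysed here, and the endothelial gene Pecam1 reached 31.6 CPM, the authors' reads per gene scaled for depth. Tfe3 was at 35.4 to 38.4 CPM in parental cells and at 8.01 to 21.7 CPM in the 4 lines labelled as lacking it. Among these TKO was the highest, at 17.6 to 21.7 CPM. Tfeb was at 7.87 to 10.3 CPM in parental cells and at 2.06 to 5.27 CPM in the 4 lines labelled as lacking it. The highest of those was TFEB/TFE3 DKO, at 4.93 to 5.27 CPM. The Mitf transcript cannot check its label, because a frameshift need not remove the RNA and the 3′ end was not altered, and it stood at 1397 ± 63.3 CPM (SD, n = 3) in MITF KO against 776 ± 18.5 in parental cells. In RNA from a whole culture, fewer cells in a phase of the cycle and less transcript per cell cannot be told apart.

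A member is counted as called here when it passed the study's threshold, a fold change of at least 2 with an unadjusted p under 0.05. It is said to have risen or fallen when its p adjusted over all genes was under 0.05. Below, a call that is lost, kept or does not survive is a pass of the adjusted test, whatever the fold. In MITF KO against parental cells, 2 members were called (background 6.28% of all genes), Ccnd1 lower and Ccnd2 higher, and 7 of 10 passed the adjusted test (background 37.8%). In MITF/TFEB DKO the called members were Ccnd1 and Cdk2, both lower (13.7%), and in TKO they were Cdk2, lower, and Cdk6, higher (14.7%). In each of these lines 8 members passed the adjusted test, against backgrounds of 56.1% and 56.2%. MITF/TFE3 DKO had no called member (5.87%) and 5 past the adjusted test (41.9%). TFE3 KO, TFEB KO and TFEB/TFE3 DKO had no called member either (1.71%, 0.783% and 0.958%), and 1, 2 and 3 members passed the adjusted test (12.3%, 4.84% and 8.81%). In those 3 lines every member that passed was lower than in parental cells (7.78%, 2.59% and 4.09% of all genes were), and Cdkn1a was among them each time. The share of members past the adjusted test was above that of all genes in 6 of the 7 lines and below it in TFE3 KO, with no test of that difference. In MITF/TFE3 DKO and TFE3 KO the shares lay close together. Member means over all libraries were 56.4 to 2506 CPM, while only 9539 of the 12010 genes had a mean of at least 5 CPM. The background is therefore not matched to the members for level. All 7 comparisons share the same 3 parental libraries.

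**Figure D1:**
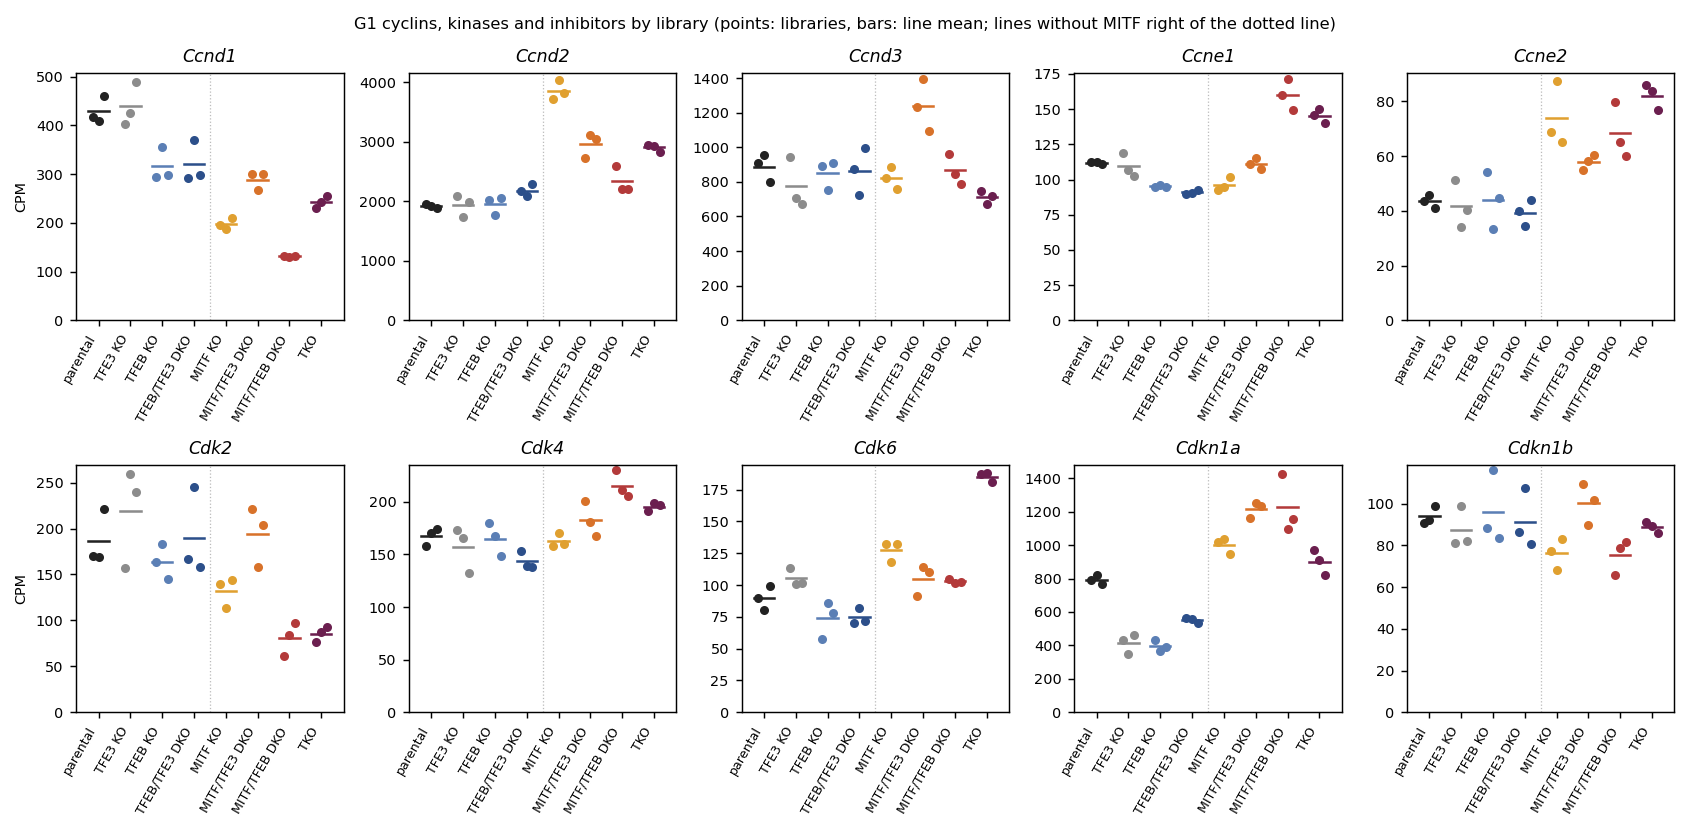
Level of each member in CPM (y axis, from 0) in each library (points) of the 8 lines (x axis), with line means as bars. The 4 lines right of the dotted line lack MITF. Every Ccne2 point there lies at 55.1 CPM or above, over every point to the left, and the TKO libraries stand alone in Cdk6 at 181 to 188 CPM.

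Ccnd1, the D-type cyclin that answers most directly to growth factor signalling, was lower in 6 of the 7 knockout lines. The parental libraries read 417, 409 and 461 CPM and TFE3 KO 403, 425 and 489 CPM, and these lines overlapped. MITF KO read 196, 187 and 209 CPM, and MITF/TFEB DKO, the lowest line, read 133, 129.6 and 132 CPM. All 6 of these libraries lay below every library of the other 6 lines. MITF/TFE3 DKO was at 301, 267 and 299 CPM and TKO at 230.4, 242 and 256 CPM, and neither overlapped the parental cells. Against parental cells, Ccnd1 fell by 1.11 on the log2 scale in MITF KO (SE 0.10, adjusted p = 2.71e-09), by 1.70 in MITF/TFEB DKO (SE 0.10, adjusted p = 8.16e-13), by 0.57 in MITF/TFE3 DKO (adjusted p = 5.76e-05) and by 0.82 in TKO (adjusted p = 1.63e-07). In cells with MITF, it fell by 0.44 in TFEB KO (293, 357 and 298 CPM, adjusted p = 0.00601) and by 0.43 in TFEB/TFE3 DKO (291, 370 and 299 CPM, adjusted p = 0.00602). The TFEB/TFE3 DKO call was lost without its replicate 1 (adjusted p = 0.0541), and both calls were lost when only the libraries compared gave the spread (adjusted p = 0.0857 and 0.0634). The 50 expressed genes in the window beside Ccnd1, all on the same side of it, had a median log2 change of 0.01 in MITF KO and 0.21 in MITF/TFEB DKO. LTO1, whose end overlaps that of Ccnd1 on the opposite strand, changed by -0.35 (adjusted p = 0.0313) and 0.12 there.

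Ccnd2, the D-type cyclin with the most reads in these cells, went the other way when MITF was absent. Parental libraries held 1954, 1927 and 1889 CPM and MITF KO libraries 3712, 4035 and 3825 CPM, with no overlap, a rise of 1.003 on the log2 scale (SE 0.09, adjusted p = 6.63e-09). This value sat on the 2-fold threshold and dropped below it without MITF KO replicate 2 (0.97) or parental replicate 3 (0.99), while the adjusted p stayed at or below 1.81e-07. MITF/TFE3 DKO (2725, 3109 and 3053 CPM) rose by 0.62 (adjusted p = 1.07e-05) and TKO (2945, 2929 and 2835 CPM) by 0.59 (adjusted p = 7.32e-06). MITF/TFEB DKO (2595, 2212 and 2197 CPM) rose least, by 0.28 (adjusted p = 0.0131), a call lost without its replicate 1 (adjusted p = 0.091). TFE3 KO, TFEB KO and TFEB/TFE3 DKO did not pass the test, with changes of 0.01, 0.02 and 0.18 and 95% confidence intervals that reached from -0.18 to 0.37. The 100 genes around Ccnd2 had a median change of -0.20 in MITF KO.

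Ccnd3 passed the test in 2 lines only. Parental libraries read 910.2, 953 and 802 CPM and MITF/TFE3 DKO libraries 1231, 1392 and 1095 CPM, a rise of 0.48 (SE 0.13, adjusted p = 0.0049) without overlap. In TKO, at 746, 672 and 721 CPM, it fell by 0.31 (adjusted p = 0.0428), but the call was lost when any library except parental replicate 3 was left out (adjusted p up to 0.144). The other 5 lines lay between 672 and 994 CPM and overlapped the parental range of 802 to 953 CPM. The 100 genes around Ccnd3 had median changes of 0.24 in MITF/TFE3 DKO and -0.24 in TKO.

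With QuantSeq, reads come from the 3′ end and do not grow with transcript length, so the D-type cyclins can be set side by side as shares of their summed reads, although priming can still differ between genes. In parental cells Ccnd1 made up 13.2% ± 1.2 (SD, n = 3), Ccnd2 59.4% ± 0.69 and Ccnd3 27.4% ± 1.8. In MITF KO the Ccnd1 share was 4.06% ± 0.36 and the Ccnd2 share 79.1% ± 0.67. The summed D-cyclin level was 4878 ± 202 CPM there against 3240.3 ± 77.3 CPM in parental cells, so the sum was higher although Ccnd1 was lower. In MITF/TFEB DKO the Ccnd1 share was also small, 3.96% ± 0.33, but the sum of 3332 ± 313 CPM overlapped the parental range. The ratio of Ccnd2 to Ccnd1 was 4.50 ± 0.35 in parental cells, 19.6 ± 1.7 in MITF KO, 17.8 ± 1.6 in MITF/TFEB DKO, 12.0 ± 0.86 in TKO and 10.3 ± 1.3 in MITF/TFE3 DKO. In TFE3 KO it was 4.44 ± 0.63, and in TFEB KO and TFEB/TFE3 DKO 6.26 ± 1.1 and 6.91 ± 1.1. Every library without MITF had a ratio of at least 9.07, and every library with it had at most 7.65.

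**Figure D2:**
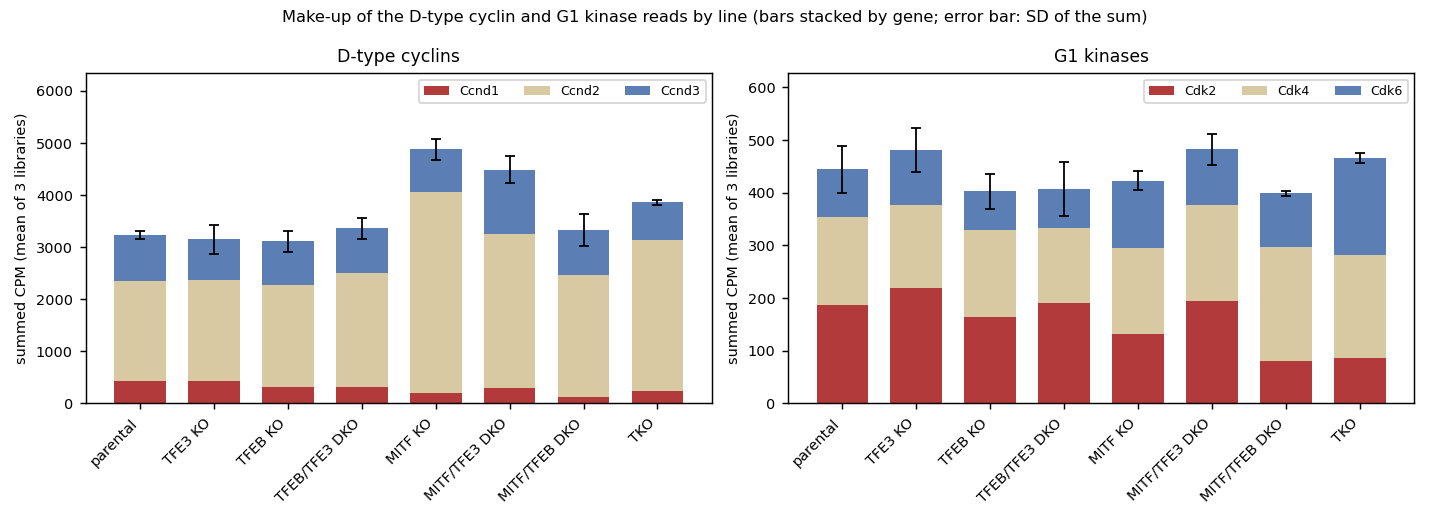
Summed CPM (y axis, from 0) of the D-type cyclins (left) and of the G1 kinases (right) in the 8 lines (x axis), stacked by gene as means of 3 libraries, with the SD of the sum as error bar. The Ccnd1 part shrinks in MITF KO and MITF/TFEB DKO, and in TKO the kinase sum is close to the parental one while Cdk2 makes up less of it and Cdk6 more.

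The E-type cyclins differed from each other. Ccne2 was the only member for which all 12 libraries without MITF lay apart from all 12 with it: 55.1 to 87.6 CPM (median 67.1) against 33.3 to 54.1 CPM (median 42.5). Of all genes, 7.66% showed such a separation, 4.2% with the higher values in the lines without MITF. The gap of about 1 CPM at that boundary, between TFEB KO replicate 1 (54.1 CPM) and MITF/TFE3 DKO replicate 1 (55.1 CPM), was smaller than the SD within TFEB KO (10.4 CPM). Parental libraries read 43.7, 45.9 and 41.2 CPM, MITF KO 69.0, 87.6 and 65.1 CPM and TKO, the highest line by mean, 85.8, 83.7 and 76.7 CPM. Ccne2 rose by 0.74 on the log2 scale in MITF KO (SE 0.15, adjusted p = 0.000625), by 0.63 in MITF/TFEB DKO (adjusted p = 0.00149) and by 0.90 in TKO (adjusted p = 3.46e-05). In MITF/TFE3 DKO it rose by 0.40 (adjusted p = 0.0417), a call that did not survive leaving out any of the 6 libraries (adjusted p up to 0.112). Its changes in the 3 lines that kept MITF were -0.08, -0.01 and -0.15, and none passed the test.

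Ccne1 had the closest replicates of the set. Parental libraries read 113, 112 and 111 CPM, MITF/TFEB DKO 160.2, 171 and 149.5 CPM and TKO 146, 150.0 and 140.3 CPM. The latter 2 lines overlapped each other and lay above every other library, with rises of 0.51 (SE 0.07, adjusted p = 1.2e-06) and 0.37 (SE 0.07, adjusted p = 7.17e-05). In MITF KO (92.4, 94.3 and 102 CPM) Ccne1 fell by 0.22 (adjusted p = 0.0154), a call lost without MITF KO replicate 1 or 2 (adjusted p = 0.0675 and 0.0515). In TFEB/TFE3 DKO (89.6, 90.3 and 92.7 CPM) it fell by 0.30 (adjusted p = 0.00712). TFEB KO lay almost as low at 94.7, 95.9 and 94.9 CPM, but its change of -0.23 had an adjusted p of 0.0531. 1600014C10Rik, the gene that starts next to Ccne1 on the opposite strand, rose by 1.34 in MITF/TFEB DKO and by 1.23 in TKO.

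Among the kinases, Cdk2 was low where MITF and TFEB were both missing. Parental libraries read 170, 169 and 221 CPM, MITF/TFEB DKO 61.2, 84.0 and 97.0 CPM and TKO 76.8, 87.4 and 92.7 CPM. These 6 libraries lay below all other 18, while the 2 lines overlapped each other. The fall was 1.21 on the log2 scale in MITF/TFEB DKO (SE 0.19, adjusted p = 1.18e-05) and 1.11 in TKO (SE 0.19, adjusted p = 3.59e-05). The TKO value went under 2-fold without parental replicate 3, the highest parental library (-0.98, adjusted p = 0.000518). In MITF KO, at 139, 113 and 144 CPM, Cdk2 lay below the parental range and fell by 0.49 (SE 0.19, adjusted p = 0.0474), but without any of the 6 libraries the adjusted p was between 0.0547 and 0.204. In MITF/TFE3 DKO it stood at 221, 158 and 203 CPM, within the spread of the parental cells, a change of 0.05 with a 95% confidence interval from -0.34 to 0.45. TFE3 KO held the highest library of all (157, 259 and 240 CPM) and did not differ from parental cells by the test (0.21, adjusted p = 0.524).

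Pmel, across the shared upstream stretch from Cdk2, fell in the same 2 lines. It read 3634, 3588 and 4092 CPM in parental cells, 813, 970.1 and 1038 CPM in MITF/TFEB DKO and 527, 544 and 583 CPM in TKO, falls of 2.01 (SE 0.11, adjusted p = 5.62e-13) and 2.77 (SE 0.11, adjusted p = 1.01e-15). In MITF KO Pmel, at 3487, 3171 and 3921 CPM, changed by -0.10 (adjusted p = 0.509), beside the change of -0.49 in Cdk2, and the difference between these was not tested. The 58 expressed genes in the window around Cdk2, most of them on the same side of it, had median changes of 0.49 in MITF/TFEB DKO and 0.33 in TKO. Rab5b, on the other side of Cdk2, changed by 0.67 and 0.95. Within lines, the library highest for Cdk2 was also the highest for Pmel in all lines but MITF/TFE3 DKO. Lockd, a gene beside Cdkn1b on another chromosome, was highest in the same library as Cdk2 in every line. The shared peak was therefore not particular to Pmel. The part of the short distance between these genes in their levels was not tested.

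**Figure D3:**
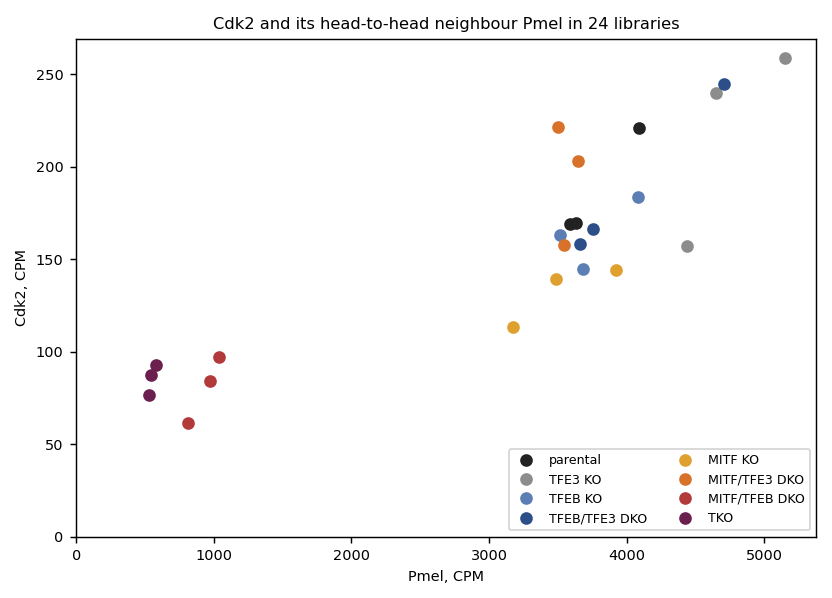
Cdk2 (y axis, CPM) against Pmel (x axis, CPM) in the 24 libraries, coloured by line. MITF/TFEB DKO and TKO libraries lie below 100 CPM of Cdk2 and at 527 to 1038 CPM of Pmel, apart from the other 18.

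Cdk6 was highest in TKO. Parental libraries read 89.7, 80.7 and 99.3 CPM and TKO libraries 187, 188 and 181 CPM, above all other 21 libraries. It rose by 1.04 in TKO (SE 0.11, adjusted p = 5.56e-08), a value under 2-fold without parental replicate 2 (0.97). MITF KO, at 132, 118 and 132 CPM, rose by 0.50 (SE 0.11, adjusted p = 0.00122). MITF/TFE3 DKO and MITF/TFEB DKO, between 91.1 and 114 CPM, did not pass the test (0.22 and 0.20, adjusted p = 0.123 and 0.146). The lowest lines were TFEB KO (57.7, 85.6 and 77.9 CPM) and TFEB/TFE3 DKO (70.1, 81.9 and 72.0 CPM), which overlapped the parental cells. The ratio of Cdk6 to Cdk2 reads was 0.485 ± 0.040 in parental cells, 0.971 ± 0.068 in MITF KO, 1.32 ± 0.34 in MITF/TFEB DKO and 2.18 ± 0.24 in TKO. The 51 expressed genes in the window around Cdk6, nearly all on the same side of it, had a median change of -0.06 in TKO.

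Cdk4, the partner of the D-type cyclins beside Cdk6, varied least among the kinases: its highest line mean was 1.50 times its lowest, against 2.71 for Cdk2 and 2.51 for Cdk6. Parental libraries read 158, 170 and 175 CPM and MITF/TFEB DKO 230.0, 211 and 205 CPM, a rise of 0.36 (SE 0.09, adjusted p = 0.00242). TKO (191, 198 and 197 CPM) rose by 0.22 (adjusted p = 0.0491), but that call did not survive leaving out any of the 6 libraries or edgeR on the reads (adjusted p = 0.0529). In the other lines its levels ran from 132 to 201 CPM. The 100 genes around Cdk4 had median changes of 0.40 in MITF/TFEB DKO and 0.31 in TKO, no smaller than those of Cdk4. Whether Cdk4 changed apart from its neighbours was not tested. Tspan31, which overlaps the end of Cdk4 on the opposite strand, was at 9.53 to 52.0 CPM across the libraries. It rose by 1.05 in MITF/TFEB DKO (adjusted p = 0.000834) and changed by 0.56 in TKO (adjusted p = 0.055). Of the 50-base stretches of the Cdk4 transcript end, 3.55% also occur in other genes.

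**Figure D4:**
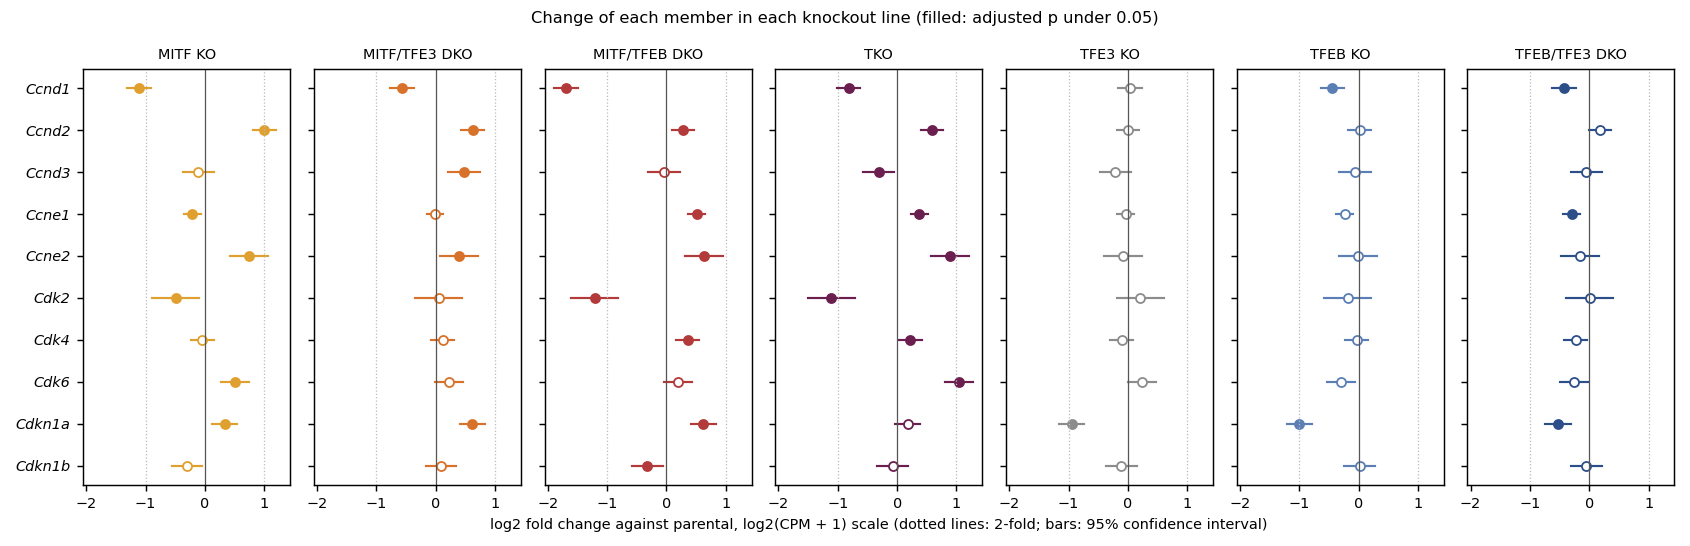
Log2 fold change of each member (rows) in each knockout line (panels) against parental cells on the log2(CPM + 1) scale, with 95% confidence intervals; filled points passed the adjusted test, and dotted lines mark 2-fold. Ccnd1 lies left of 0 in every line except TFE3 KO, and Cdkn1a lies left of 0 in the 3 lines with MITF and right of 0 in the 4 without.

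Of the inhibitors, Cdkn1a moved in opposite directions depending on the line. Parental libraries read 789, 822 and 768 CPM. TFE3 KO read 434, 347 and 462 CPM, TFEB KO 432, 369 and 390.2 CPM and TFEB/TFE3 DKO 563, 556 and 531 CPM, all below every parental library. With MITF absent, MITF KO read 1019, 1038 and 949 CPM, MITF/TFE3 DKO 1163, 1253 and 1233 CPM and MITF/TFEB DKO 1425, 1097 and 1154 CPM, all above them. TKO, at 969, 914 and 822 CPM, met the parental range at its lowest library. Cdkn1a fell by 0.95 in TFE3 KO (SE 0.10, adjusted p = 7.81e-07), by 0.999 in TFEB KO (SE 0.10, adjusted p = 5.7e-07) and by 0.53 in TFEB/TFE3 DKO (adjusted p = 0.00174). The TFEB KO value fell just short of 2-fold and crossed it without parental replicate 1 or 3 or TFEB KO replicate 1 (down to -1.06), and the TFE3 KO value crossed it without TFE3 KO replicate 3 (-1.03). It rose by 0.34 in MITF KO (adjusted p = 0.0118), by 0.62 in MITF/TFE3 DKO (SE 0.10, adjusted p = 4.6e-05) and by 0.62 in MITF/TFEB DKO (SE 0.10, adjusted p = 2.04e-05). The TKO change of 0.18 did not pass (adjusted p = 0.134), and with only the libraries compared its adjusted p was 0.0258. Trp53cor1, a noncoding p53 target that starts 11652 bases from Cdkn1a, had the same sign of change as Cdkn1a in MITF KO (0.87), TFE3 KO (-1.23), TFEB KO (-0.27) and MITF/TFE3 DKO (0.90), and the other sign in TFEB/TFE3 DKO (0.21), MITF/TFEB DKO (-0.18) and TKO (-0.79). The Trp53cor1 values in TFEB KO, TFEB/TFE3 DKO and MITF/TFEB DKO did not pass the test.

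Cdkn1b varied least of all members, with a highest line mean 1.33 times the lowest and all 24 libraries between 65.8 and 116 CPM. It fell by 0.32 in MITF/TFEB DKO (65.8, 78.8 and 81.5 CPM against 90.7, 92.4 and 99.0 CPM in parental cells, SE 0.12, adjusted p = 0.0312), a call lost without parental replicate 2 or 3 or MITF/TFEB DKO replicate 1 (adjusted p up to 0.158). MITF KO was almost as low at 77.4, 68.2 and 83.1 CPM, with a change of -0.30 and an adjusted p of 0.0574, or 0.0124 when only the libraries compared gave the spread. In the other 5 lines the changes ran from -0.11 to 0.09 and did not pass. The 95 expressed genes in the window around Cdkn1b had median changes of -0.38 in MITF/TFEB DKO and -0.22 in MITF KO. Whether Cdkn1b changed apart from its neighbours was not tested. The ratio of Cdkn1a to Cdkn1b ran from 4.25 ± 0.93 in TFEB KO, through 8.45 ± 0.61 in parental cells, to 16.6 ± 4.4 in MITF/TFEB DKO.

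Loss of TFEB or TFE3 was then compared between cells that had MITF and cells that lacked it, by a test of the difference itself. For loss of TFEB, 4 members differed (background 35.1% of all genes), and for loss of TFE3, 6 (20.2%). Cdkn1a differed most in both. Loss of TFEB lowered it by 0.999 with MITF and raised it by 0.28 without (MITF/TFEB DKO against MITF KO, adjusted p = 0.0259), a difference of 1.28 (SE 0.14, adjusted p = 2.57e-07). Loss of TFE3 lowered it by 0.95 with MITF and raised it by 0.28 without (adjusted p = 0.0349), a difference of 1.22 (SE 0.14, adjusted p = 9.66e-07). Both of the rises were lost when single libraries were left out (adjusted p up to 0.183 and 0.115), while the differences held without each of the 12 libraries.

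Ccne1 rose by 0.73 on loss of TFEB without MITF (SE 0.07, adjusted p = 7.01e-09) against -0.23 with it, a difference of 0.96 (adjusted p = 4.54e-08). Ccnd2 changed by -0.73 without MITF and by 0.02 with it, a difference of -0.75 (adjusted p = 8.39e-05). Cdk4 changed by 0.40 and by -0.03, a difference of 0.43 (adjusted p = 0.0145, or 0.0514 when the least favourable library was left out). Cdk2 fell by 0.72 on loss of TFEB without MITF (adjusted p = 0.00345) and changed by -0.18 with it, but the difference of -0.54 (SE 0.27) did not pass (adjusted p = 0.129). For loss of TFE3, Ccnd3 rose by 0.59 without MITF (adjusted p = 0.00119) and changed by -0.21 with it, a difference of 0.79 (adjusted p = 0.00302). Ccnd1 rose by 0.55 without MITF (adjusted p = 0.000132) and changed by 0.03 with it, a difference of 0.51 (adjusted p = 0.00848). Loss of TFEB lowered Ccnd1 without MITF, by 0.58 (adjusted p = 2.68e-05), and MITF KO cells lay between MITF/TFEB DKO and MITF/TFE3 DKO for this cyclin. In those cells 7 of 10 members passed the adjusted test for each of the losses (backgrounds 49% and 37.7%), and none was called (10.9% and 5.06%).

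**Figure D5:**
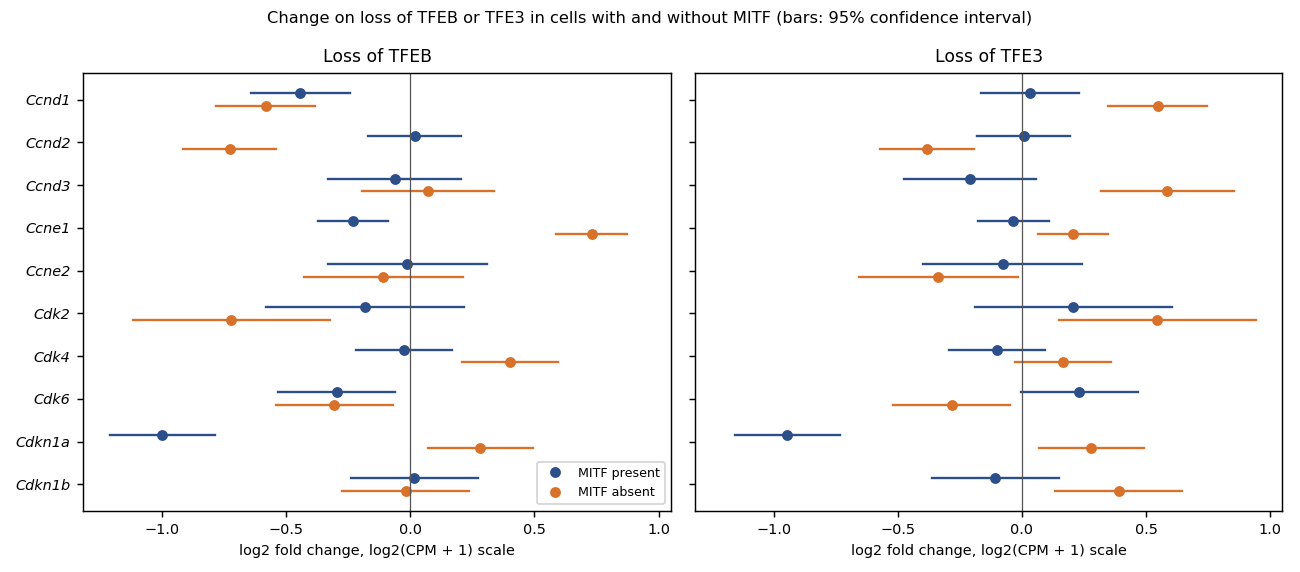
Log2 fold change of each member (rows) on loss of TFEB (left) or TFE3 (right) on the log2(CPM + 1) scale, in cells with MITF (blue) and without it (orange), with 95% confidence intervals. The intervals of Cdkn1a lie left of 0 with MITF and right of 0 without it in both panels, and those of Ccne1 lie on opposite sides of 0 in the left panel.

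Within cells that kept MITF, the effects of the TFEB and TFE3 losses on Cdkn1a did not add up. With TFE3 present, loss of TFEB changed Cdkn1a by -0.999 (TFEB KO against parental cells). Without TFE3 the direction was the opposite, at 550 ± 16.7 CPM in TFEB/TFE3 DKO against 414 ± 59.6 in TFE3 KO (SD, n = 3). The effect without TFE3 minus that with it was 1.42 (SE 0.14, adjusted p = 4.5e-07). Cdkn1a was the 1 member of 10 to differ (background 12.4%). Loss of MITF was also compared between cells that lacked both TFEB and TFE3 and cells that had both, and 6 members differed (41.4%). Among them, Ccne1 differed by 0.89 (adjusted p = 1.65e-07), Cdk6 by 0.80 (adjusted p = 0.000409) and Ccnd1 by 0.72 (adjusted p = 0.000189).

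The last step to TKO was followed from both sides. Against MITF/TFE3 DKO, TKO had 1 called member (11.4%), Cdk2, which fell by 1.16 (SE 0.19, adjusted p = 2.43e-05), and 7 past the adjusted test (50.8%). Among those, Cdk6 rose by 0.82 (adjusted p = 2.53e-06), Ccne2 by 0.50 (adjusted p = 0.0102) and Ccne1 by 0.38 (adjusted p = 6.24e-05), while Ccnd3 fell by 0.79 (adjusted p = 2.09e-05) and Cdkn1a by 0.43 (adjusted p = 0.00111). Against MITF/TFEB DKO, TKO had no called member (2.3%), and 4 passed the adjusted test (12.4%). Ccnd1 rose by 0.88 (adjusted p = 3.48e-07) and Cdk6 by 0.84 (adjusted p = 9.7e-06), Cdkn1a fell by 0.44 (adjusted p = 0.00491), and Ccnd2 rose by 0.32 (adjusted p = 0.021, up to 0.0973 when a library was left out). Cdk2 changed by 0.11 there, with a 95% confidence interval from -0.29 to 0.50.

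The members did not move as a block. By the root-mean-square difference of their centred log2 line means over the 8 lines, Cdk4 and Ccne1 were the most alike pair (0.13) and Ccnd1 and Cdkn1a the least alike (1.05). Cdk2 and Ccnd1 differed by 0.30, and Cdk6 and Ccne2 by 0.22. Among 9538 other genes with a mean of at least 5 CPM, the patterns nearest to Cdk2 were those of Trpv2, Traf4 and Gm32856 (0.10 to 0.12), nearest to Ccnd1 those of Anxa1, Gins1 and Sipa1l3 (0.18 to 0.20), and nearest to Cdkn1a those of Ypel2, Plxnc1 and Cfap410 (0.17 to 0.23). Cdk6 lay nearest to Ryk, Phtf2 and Rap1gds1 (0.13 to 0.15), and Ccnd2 to Cyb5rl, Cyp39a1 and C030006K11Rik (0.11).

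Other genes of the pathway gave the setting of these changes. Of 28 measured G1/S regulators outside the set (30 were listed, and Cdkn2a and Cdkn2b had no row), 12 were higher and 7 lower in TKO by the adjusted test, 8 and 10 in MITF/TFEB DKO, 7 and 9 in MITF/TFE3 DKO and 3 and 6 in MITF KO. Of all genes, 56.2%, 56.1%, 41.9% and 37.8% passed in these lines, which is the background for each of the lists described here. The list's median log2 change was 0.29 in TKO against 0.01 over all genes, and -0.13 in MITF KO. In TFE3 KO 1 was higher and 3 lower, in TFEB/TFE3 DKO 2 were lower, and in TFEB KO none passed. Of all genes, 12.3%, 8.81% and 4.84% passed in these lines in either direction, which is again the background for each list. Cdkn1c, which encodes the p57 inhibitor of the same family as p21 and p27, rose by 2.46 in TKO (22.0 ± 2.8 CPM against 3.19 ± 0.63 in parental cells) and by 2.07 in MITF/TFEB DKO. Its changes of 0.65 in MITF KO, 0.67 in MITF/TFE3 DKO, -0.93 in TFE3 KO and -0.75 in TFEB/TFE3 DKO also passed. The change of -0.71 in TFEB KO did not (adjusted p = 0.0521). E2f7, a repressor among the E2F factors, rose by 1.62 in TKO, and Tfdp1, the dimer partner of E2Fs, by 1.22. E2f5 fell by 1.15 in TKO. Myc, at 6.50 ± 0.25 CPM in parental cells, fell by 1.40. Among 8 genes for p27 turnover and transcription, 2 were higher and 3 lower in MITF KO, 2 and 6 in MITF/TFE3 DKO, 2 and 3 in MITF/TFEB DKO and 3 and 2 in TKO. In TFEB/TFE3 DKO 2 were lower, and in TFE3 KO and TFEB KO none passed.

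The p53 pathway list, which shares its regulator with Cdkn1a, had more genes higher than lower in each line without MITF. Of 20 measured genes (22 were listed, and Pmaip1 and Perp had no row), 10 rose and 2 fell in MITF KO, 11 and 3 in MITF/TFE3 DKO, 14 and 1 in MITF/TFEB DKO and 13 and 3 in TKO, with median log2 changes of 0.40, 0.63, 0.57 and 0.49 against medians between 0.00 and 0.02 over all genes. In TFE3 KO, TFEB KO and TFEB/TFE3 DKO none rose and 4, 3 and 5 fell, with medians of 0.00, -0.20 and -0.20. Of all genes, 7.78%, 2.59% and 4.09% fell in these lines. Btg2, an antiproliferative gene, rose by 1.20 in MITF KO and by 1.91 in TKO, and Trp53inp1 rose by 1.56 in MITF/TFE3 DKO (56.1 ± 7.1 CPM against 18.4 ± 1.9). Trp53inp1 fell by 0.62 in TFE3 KO and by 0.79 in TFEB KO, lines in which Cdkn1a fell as well. Bbc3, which encodes PUMA, rose by 1.48 in MITF/TFEB DKO. Gdf15, a secreted stress-response factor, rose by 1.98 in MITF KO (5.70 ± 0.98 CPM against 0.743 ± 0.55) and by 1.48 in MITF/TFE3 DKO, but changed by -0.06 in MITF/TFEB DKO and by -0.50 in TKO, which did not pass. Eda2r, a receptor gene, rose by 1.72 in MITF/TFE3 DKO, where it reached 2.79 ± 0.79 CPM.

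E2F targets, the genes that the cyclins and kinases release, had more genes lower than higher in each line without MITF. Of 28 genes, 16 fell and none rose in MITF KO, 20 and none in MITF/TFE3 DKO, 21 and none in MITF/TFEB DKO and 13 and 1 in TKO, with median log2 changes of -0.37, -0.40, -0.53 and -0.18. The shares of all genes that passed in those lines, in either direction, were 37.8%, 41.9%, 56.1% and 56.2%. In TFE3 KO 10 rose and none fell (median 0.23), and 3 and 1 rose in TFEB KO and TFEB/TFE3 DKO. Of all genes, 12.3%, 4.84% and 8.81% passed in these lines in either direction. The replication licensing factor Cdt1 fell by 0.69 in MITF KO and by 1.33 in MITF/TFEB DKO and rose by 0.39 in TFE3 KO. In MITF/TFEB DKO Rrm2, a subunit of ribonucleotide reductase, fell by 1.37, and the chromatin assembly factor Chaf1a fell by 1.40. In MITF/TFE3 DKO the helicase subunit Mcm7 fell by 1.31 and the proliferation marker Mki67 by 1.31. Mki67 did not pass in MITF KO (-0.15), MITF/TFEB DKO (-0.27) or TKO (0.31), with adjusted p = 0.464, 0.131 and 0.0847. These lists were chosen with earlier results of these data known, and their counts describe the lines beside the members.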

How the data were processed

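RNA of 24 libraries, 3 for each of 8 B16F10-luc2 lines, was sequenced from its 3′ ends (QuantSeq Forward). The authors trimmed and aligned the reads to mm39 (Trim Galore 0.6.5, cutadapt 2.10, STAR 2.7.8a) and deposited a table of 12010 genes after their own filtering, with values made in edgeR as counts per gene scaled by depth and TMM. These deposited values are treated as a signal and called CPM, because their columns sum to between 933263 and 1081081. The design had assumed plain CPM. Whole reads were recovered for 99.9% of values and gave the depths.

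Values were tested as log2(CPM + 1) with limma 3.58.1 (R 4.3.3) over all 24 libraries with 1 coefficient per line, and p-values were adjusted over all 12010 genes (Benjamini-Hochberg). Adjusted p-values in the text are from limma unless edgeR is named. A fold change on this scale understates the change of low genes. The scripts were tested on simulated data. The alternatives were edgeR 4.0.16 on the recovered reads, median-of-ratios size factors (DESeq2 1.42.0), pseudocounts of 0.25 and 5, a mean of at least 5 CPM, only the libraries compared, an adjusted p with no minimum fold, a block by replicate number, and each library left out. Positions and sequences were read from GRCm39 with GENCODE (11705 genes matched), and motifs were searched upstream of each gene's canonical start. All 10 members were named. Of each list at most 5 genes were named, those with the largest change among genes past 2-fold and both p thresholds. The members and lists were chosen with earlier results of these data known.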

Additional observations from a re-analysis of the deposited data

Results flagged for a closer look

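In each case below, the effect of a loss differed between 2 backgrounds by a test of the difference itself (limma, adjusted over all genes), and the value is the log2 effect in the first background minus that in the second. For loss of TFEB, without MITF minus with MITF, the differences were 0.43 for Cdk4 (adjusted p = 0.0145), -0.75 for Ccnd2 (adjusted p = 8.39e-05), 0.96 for Ccne1 (adjusted p = 4.54e-08) and 1.28 for Cdkn1a (adjusted p = 2.57e-07). For loss of TFE3, without MITF minus with MITF, they were -0.51 for Cdk6 (adjusted p = 0.0258), 0.51 for Ccnd1 (adjusted p = 0.00848), -0.39 for Ccnd2 (adjusted p = 0.0341), 0.79 for Ccnd3 (adjusted p = 0.00302), 1.22 for Cdkn1a (adjusted p = 9.66e-07) and 0.50 for Cdkn1b (adjusted p = 0.0466). For loss of TFEB, without TFE3 minus with TFE3, the difference was 1.42 for Cdkn1a (adjusted p = 4.5e-07). For loss of MITF, without TFEB and TFE3 minus with both, the differences were 0.49 for Cdk4 (adjusted p = 0.00504), 0.80 for Cdk6 (adjusted p = 0.000409), 0.72 for Ccnd1 (adjusted p = 0.000189), -0.59 for Ccnd2 (adjusted p = 0.000868), 0.89 for Ccne1 (adjusted p = 1.65e-07) and 0.37 for Cdkn1a (adjusted p = 0.0423). When each of 12 libraries was left out in turn, the call was kept 7 times for the Cdk6 difference for TFE3, 4 times for Ccnd2, 3 times for Cdkn1b, and 1 time for the Cdkn1a difference for MITF (adjusted p up to 0.0847, 0.0964, 0.125 and 0.106). The Cdk4 difference for TFEB kept it 11 times (adjusted p up to 0.0514). The Cdkn1b difference was also lost with edgeR on the reads (adjusted p = 0.0513), the Cdkn1a difference for MITF with median-of-ratios size factors (adjusted p = 0.0562), and the Ccnd2 difference for TFE3 with only the libraries compared (adjusted p = 0.0788).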

How the results depend on the processing

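No change past the threshold reversed its direction in any alternative run. With an adjusted p under 0.05 and no minimum fold, the number of members called was 7 in MITF KO, 1 in TFE3 KO, 2 in TFEB KO, 3 in TFEB/TFE3 DKO, 5 in MITF/TFE3 DKO, 8 in MITF/TFEB DKO and 8 in TKO against parental cells. It was 7 for MITF/TFEB DKO and 7 for MITF/TFE3 DKO against MITF KO, and 7 and 4 for TKO against MITF/TFE3 DKO and MITF/TFEB DKO. A pseudocount of 0.25 gave 1 called member in TFEB KO, Cdkn1a. With each library left out, the number called ranged from 1 to 2 in MITF KO, 0 to 1 in TFE3 KO, 0 to 1 in TFEB KO and 1 to 2 in TKO. The number of members whose TFE3 effect differed with MITF ranged from 3 to 6, with 3 without parental replicate 2 or MITF/TFE3 DKO replicate 1. The cause was not tested. Deviations of same-numbered libraries of different lines had a mean correlation of 0.022, but single pairs ran from -0.66 to 0.77. A small mean cannot exclude that some of these libraries deviated together. In TFE3 KO, TFEB KO and TFEB/TFE3 DKO, replicate 2 was the highest library for Cdk2, Pmel and Cdkn1b. With the replicate block the number called stayed at 2 in MITF KO, 2 in MITF/TFEB DKO and 2 in TKO. Depth did not limit the members, whose counting error was at most 3.75%. The spread of 3 libraries per line did, most for Cdk2 and Ccne2.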
